A study of Drosophila melanogaster with 6 samples.

Results

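The cytosolic ribosomal protein (RP) genes were examined in RNA-seq of *Drosophila melanogaster* larval salivary glands (SGs). A gene was taken as a member when it was annotated as protein coding and its name began with RpL or RpS followed by a digit, or was *RpLP0*, *RpLP1*, *RpLP2* or *sta*, and 92 of the 23932 entries of the table met this rule. Of these, 53 belong by name to the large subunit and 39 to the small subunit. The 22 members whose names end in a, b or -like were kept apart as paralogues, and the other 70 are called core members. The study compared SGs of L3 larvae of the *de2f1b* genotype (4 libraries, replicates 1 to 4) with SGs of L3 larvae of w1118, the white-eyed control strain (2 libraries, replicates 1 and 4). L3 is the last larval instar. The *de2f1b* allele is a deletion of the microexon that distinguishes the dE2F1b isoform of the activator E2F from the canonical dE2F1a form, so the canonical isoform can still be made. The study used both homozygous *de2f1b* larvae and larvae with *de2f1b* over a deficiency of arm 3R, and which of them these libraries hold is not given in the sources used here. The sex of the larvae and the number pooled are not given in the labels. The titles call the libraries biological replicates and do not say how they were separated, so the p-values measure the spread between these libraries.

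Each ribosome holds 1 copy of nearly every RP, bound to ribosomal RNA in a large subunit that forms peptide bonds and a small subunit that reads the mRNA. In flies, RP genes are among the most highly transcribed genes of growing tissues, and their mRNAs start with a short pyrimidine tract through which the TOR pathway controls translation. Many RP genes are *Minute* loci, at which loss of 1 copy slows growth. The SG is a polyploid gland that makes very large amounts of glue protein at the end of larval life, and it is therefore rich in ribosomes.

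*RpL32*, also called *rp49*, encodes a large subunit protein and is 1 of the genes for which the study lists RT-qPCR primers. The primers are shown because they define the part of a member transcript that a second assay on the same tissue would read, with all letters in lower case because no base is singled out.
RpL32 forward: tacaggcccaagatcgtgaag
RpL32 reverse: gacgcactctgttgtcgatacc
*RpL32* (FBgn0002626) lies on the minus strand at chr3R:30045229-30046161 of BDGP6.54, and its annotated exons cover 796 bases. Its normalized counts, which are read counts divided by 1 size factor per library, were 63632, 75552, 50377 and 66171 in *de2f1b* replicates 1 to 4, against 69049 and 82483 in w1118 replicates 1 and 4. *de2f1b* replicates 1, 3 and 4 were below both controls and replicate 2 lay between them, so the groups overlapped. The log2 fold change, *de2f1b* over w1118 on the log2(normalized count + 1) scale, was -0.25 (SE 0.23), and the limma test with Benjamini-Hochberg adjustment over all genes gave an adjusted p of 0.541. *RpL32* stood -0.01 from the median log2 fold change of the core members, so it followed the other RP genes.

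The libraries held 56495956 to 86202639 assigned reads in *de2f1b* SGs and 78317269 to 94907006 in w1118 SGs. No core member had fewer than 22544 reads in any library, so counting error was small beside the spread between libraries. The salivary gland markers fixed for this report (glue genes, *sage*, *fkh* and *CrebA*) had reads in every library for 9 of 9 genes, but their levels were unequal. *sage*, a salivary gland transcription factor, had 60254, 80175, 36174 and 39850 normalized counts in *de2f1b* SGs, against 83693 and 149564 in w1118 SGs, and *CrebA*, an activator of secretory genes, had 28221, 29751, 16122 and 16413 in *de2f1b* SGs, against 30636 and 56104 in w1118 SGs. All 4 *de2f1b* libraries were below both controls for both genes, and replicates 3 and 4 were the lowest. No other salivary gland marker was below both controls in all 4. *fkh* had 10741, 10728, 6243 and 5940 normalized counts in *de2f1b* SGs, against 9271 and 14507 in w1118 SGs. The glue gene *Sgs8* had 836207, 993887, 417564 and 673886 in *de2f1b* SGs, against 313286 and 551590 in w1118 SGs, so replicates 1, 2 and 4 were above both controls. Fat body markers were also high in every library, with summed normalized counts of 2936470 to 5781040 in *de2f1b* SGs and 4406060 to 4814500 in w1118 SGs. Of 8 ring gland markers, 7 in *de2f1b* replicate 3 and 6 in replicate 4 exceeded 10 times the higher control, against 1 each in replicates 1 and 2. Of 10 testis markers, 9 did so in *de2f1b* replicate 3 and 0 in the other *de2f1b* libraries. Of 4 midgut markers, 3, 0, 2 and 1 did so in *de2f1b* replicates 1 to 4, as did 2 of 4 nervous system markers in replicate 3. Summed muscle markers stood at 35607, 29836, 68829 and 126212 normalized counts in *de2f1b* SGs, against 34776 and 13237 in w1118 SGs. In bulk tissue of this kind, fewer cells of a type and less RNA per cell cannot be told apart. Total E2f1 transcripts, which include the canonical isoform, had 12896, 10267, 9304 and 7190 normalized counts in *de2f1b* SGs, against 12544 and 18666 in w1118 SGs (log2 fold change -0.66, adjusted p = 0.230 by limma). Gene-level counts hold no value for the deleted microexon.

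RP transcripts took like shares of the assigned reads in both genotypes. The 92 members took 9.32%, 10.5%, 10.9% and 11.1% of reads in *de2f1b* replicates 1 to 4, against 11.6% and 10.5% in w1118 replicates 1 and 4. Wilson 95% intervals were within 0.00798 percentage points of each value and cover counting error only. The ranges of the 2 genotypes overlapped. The glue genes, which encode the secreted glue and take the largest share of SG mRNA, took 21.3%, 23.6%, 14.7% and 14.2% of reads in *de2f1b* SGs, against 15.3% and 22.1% in w1118 SGs. With the glue reads left out of the total, the RP share was 11.8%, 13.7%, 12.7% and 13.0% in *de2f1b* SGs, against 13.7% and 13.4% in w1118 SGs, and the ranges still overlapped. Over the core members, the balance of the subunits moved little. Their ratio of large to small subunit reads was 1.67, 1.65, 1.65 and 1.63 in *de2f1b* SGs and 1.62 and 1.64 in w1118 SGs. The paralogues, some of them abundant, were left out of this ratio.

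Levels of different members were compared per kilobase of annotated exon. *RpL41*, which encodes a very short basic peptide of the large subunit, was highest, with 341113 ± 76865 normalized counts per kb in *de2f1b* SGs (SD, n = 4) and 382692 ± 23320 in w1118 SGs (SD, n = 2). It was followed by *RpLP2*, a stalk protein that recruits elongation factors, with 241152 ± 44134 normalized counts per kb in *de2f1b* SGs and 274698 ± 21269 in w1118 SGs, and by *RpL23*, *RpLP1* and *RpS27A*, which is translated as a fusion of ubiquitin with an RP. These 5 were chosen by their rank after their values were seen. The lowest core members were *RpS21*, with 38184 ± 6108 normalized counts per kb in *de2f1b* SGs and 46878 ± 6959 in w1118 SGs, and *RpL5*, which binds 5S ribosomal RNA and has the longest annotated exons of these genes, with 41744 ± 5852 in *de2f1b* SGs and 47322 ± 4407 in w1118 SGs. Without the division by length, *RpS3A* had the most reads (171368 ± 27163 normalized counts in *de2f1b* SGs and 183054 ± 25699 in w1118 SGs), followed by *RpL5*, *RpL3*, *RpL8* and *RpLP1*. *RpL3*, *RpL4* and *RpL8* encode large proteins of the body of the large subunit, and their log2 fold changes were -0.21 (SE 0.27), -0.38 (SE 0.27) and -0.24 (SE 0.26).

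No RP gene passed the test in either direction. Of the 85 members that reached a normalized count of 10 in at least 2 libraries (70 core and 15 paralogues), limma called 0 higher and 0 lower (adjusted p under 0.05), where the background over all 11099 genes tested was 3.17% higher and 1.07% lower. At an unadjusted p under 0.05 there was 1 member higher, *RpS5b*, and 1 lower, *RpS14b*, against 12.5% and 9.09% of all genes tested. *RpS5b* reached the level needed for testing only in *de2f1b* libraries, so its p-values are partly set by that filter. edgeR on the recovered reads called 0 and 0 members (background 1.78% and 0.802%), and DESeq2 called *RpS5b* higher (adjusted p = 0.000787) and *RpS14b* lower (adjusted p = 0.0033), with a background of 9.8% and 5.01%. Quantile normalization before limma gave 1 call, *RpS14a* higher (adjusted p = 0.0395, background 1.8% higher and 1.06% lower). Without *de2f1b* replicate 3, limma called 0 and 0 members, against 2.3% and 0.59% of genes.

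Below this threshold the core members lay close together and slightly under the controls. The log2 fold change was negative for 69 of 70 core members, where it was negative for 48.5% of all genes tested, and it ranged from -0.38 to 0.06 with a median of -0.24 and quartiles of -0.32 and -0.18. The median over all genes tested was 0.02. Among the 122 other genes whose mean level lay in the range of the core members (34591 to 175263 normalized counts), the median was -0.40, with quartiles of -0.72 and -0.06, and 77% were negative. The standard deviation of the log2 fold change was 0.09 over the core members and 1.61 over these 122 genes, and 52 of 70 core members lay within 0.1 of the core median. The 122 genes ran from -12.6 to 7.34, and such extreme values raise their standard deviation more than their quartiles. All 4 *de2f1b* libraries were below both controls for 7 of the 70 core members, which is 10%, and above both for 0. The background was 16% below and 17.4% above among all genes tested, and 34.4% below and 4.92% above among the 122 genes of like level. The 1 core member with a positive value compares with 51.5% of all genes tested and 23% of the 122.

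**Figure D1:**
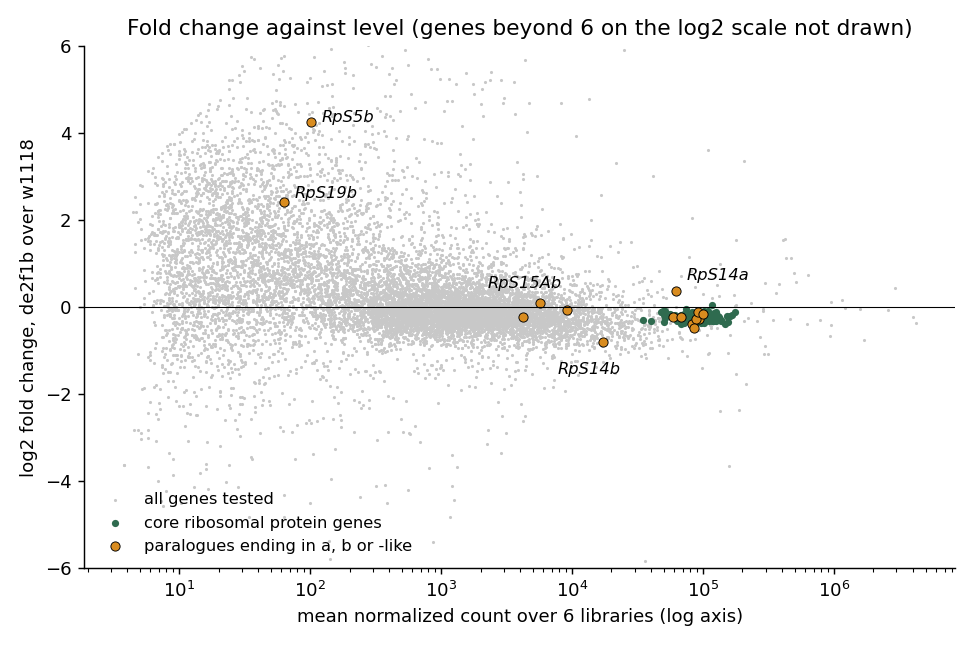
Log2 fold change (*de2f1b* over w1118, y axis) against the mean normalized count over 6 libraries (log x axis) for all genes tested in grey, the 70 core RP genes in green and the 15 tested paralogues in orange. The core members form a compact group at high level with a median of -0.24, and *RpS5b*, *RpS19b*, *RpS14a* and *RpS14b* lie away from it.

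The libraries of 1 genotype differed from each other as much as the genotypes did. Relative to the mean of the 2 controls on the log2 scale, the median core member stood at -0.26, -0.02, -0.54 and -0.17 in *de2f1b* replicates 1 to 4, and at -0.14 and 0.14 in w1118 replicates 1 and 4. The 2 controls thus differed by 0.29 between themselves, and 69 of 70 core members were higher in w1118 replicate 4 than in replicate 1. *de2f1b* replicate 3 was the lowest of the 6 libraries for 70 of 70 core members, and w1118 replicate 4 was the highest for 61. In *de2f1b* replicate 2, only 11 core members were below both controls, against 48 in replicate 1 and 43 in replicate 4. Without *de2f1b* replicate 3 the core median was -0.14, and it was -0.11 without w1118 replicate 4 and -0.38 without w1118 replicate 1. It was -0.13 without *de2f1b* replicates 3 and 4, the libraries with high ring gland markers. *de2f1b* replicate 3 also held the testis transcripts, while ring gland and muscle transcripts were high in replicates 3 and 4 and *sage* and *CrebA* were low in both. The part of these differences in the RP values was not tested.

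**Figure D2:**
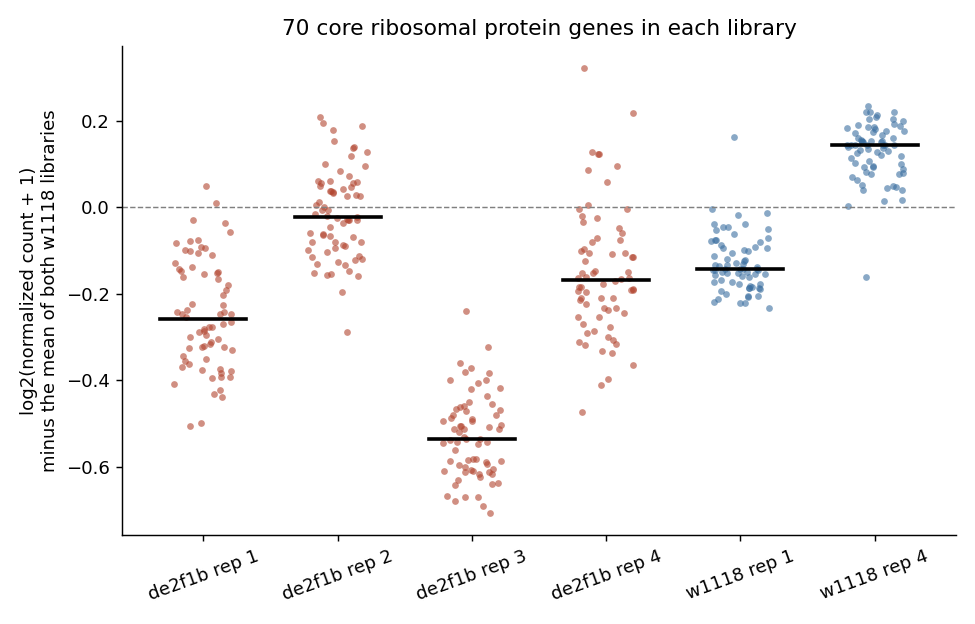
Each point is 1 of the 70 core RP genes in 1 library, as log2(normalized count + 1) minus the mean of both w1118 libraries (y axis), with the 4 *de2f1b* libraries in red, the 2 w1118 libraries in blue and the median of each library as a black bar. The *de2f1b* medians run from -0.54 in replicate 3 to -0.02 in replicate 2, and the w1118 medians are -0.14 and 0.14.

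The direction of the core median depended on how libraries were scaled. Equal library totals gave -0.09, and equal totals with the 50 most abundant genes left out gave -0.04, while the median over all genes tested shifted upward by 0.15 and 0.20. The core median relative to all genes was -0.27 with the deposited scaling, -0.27 with equal totals and -0.26 with equal totals outside those 50 genes. Quantile normalization, which forces every library to the same distribution, gave a core median of 0.031 and a shift of -0.12 over all genes, so that the core stood 0.13 above all genes under it.

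The median log2 fold change was -0.22 for the 44 core members of the large subunit and -0.26 for the 26 of the small subunit. It was -0.15 for the 7 core members on X, -0.25 for 17 on 2L, -0.22 for 17 on 2R, -0.31 for 13 on 3L and -0.23 for 15 on 3R, and differences between arms or subunits were not tested. The loci of 29 members hold 76 genes of small nucleolar RNAs (snoRNAs), most of which guide the modification of ribosomal RNA. The 27 core members that host a snoRNA had a median of -0.25, and the 43 that do not had -0.24. *RpS3A*, the only member on chromosome 4, had 183380, 200637, 137303 and 164152 normalized counts in *de2f1b* SGs, against 164882 and 201226 in w1118 SGs, a log2 fold change of -0.10 (SE 0.28). Together with *RpL5*, *RpL15* and *RpL38*, which lie near the centromeres of 2L, 3L and 2R, it gave a median of -0.19. This list was written for the report. It leaves out *RpL21* (chr2L:22247111-22247875, log2 fold change 0.06), which lies close to *RpL5*, and *RpL10* (chr3L:23093190-23095471, -0.32).

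**Figure D3:**
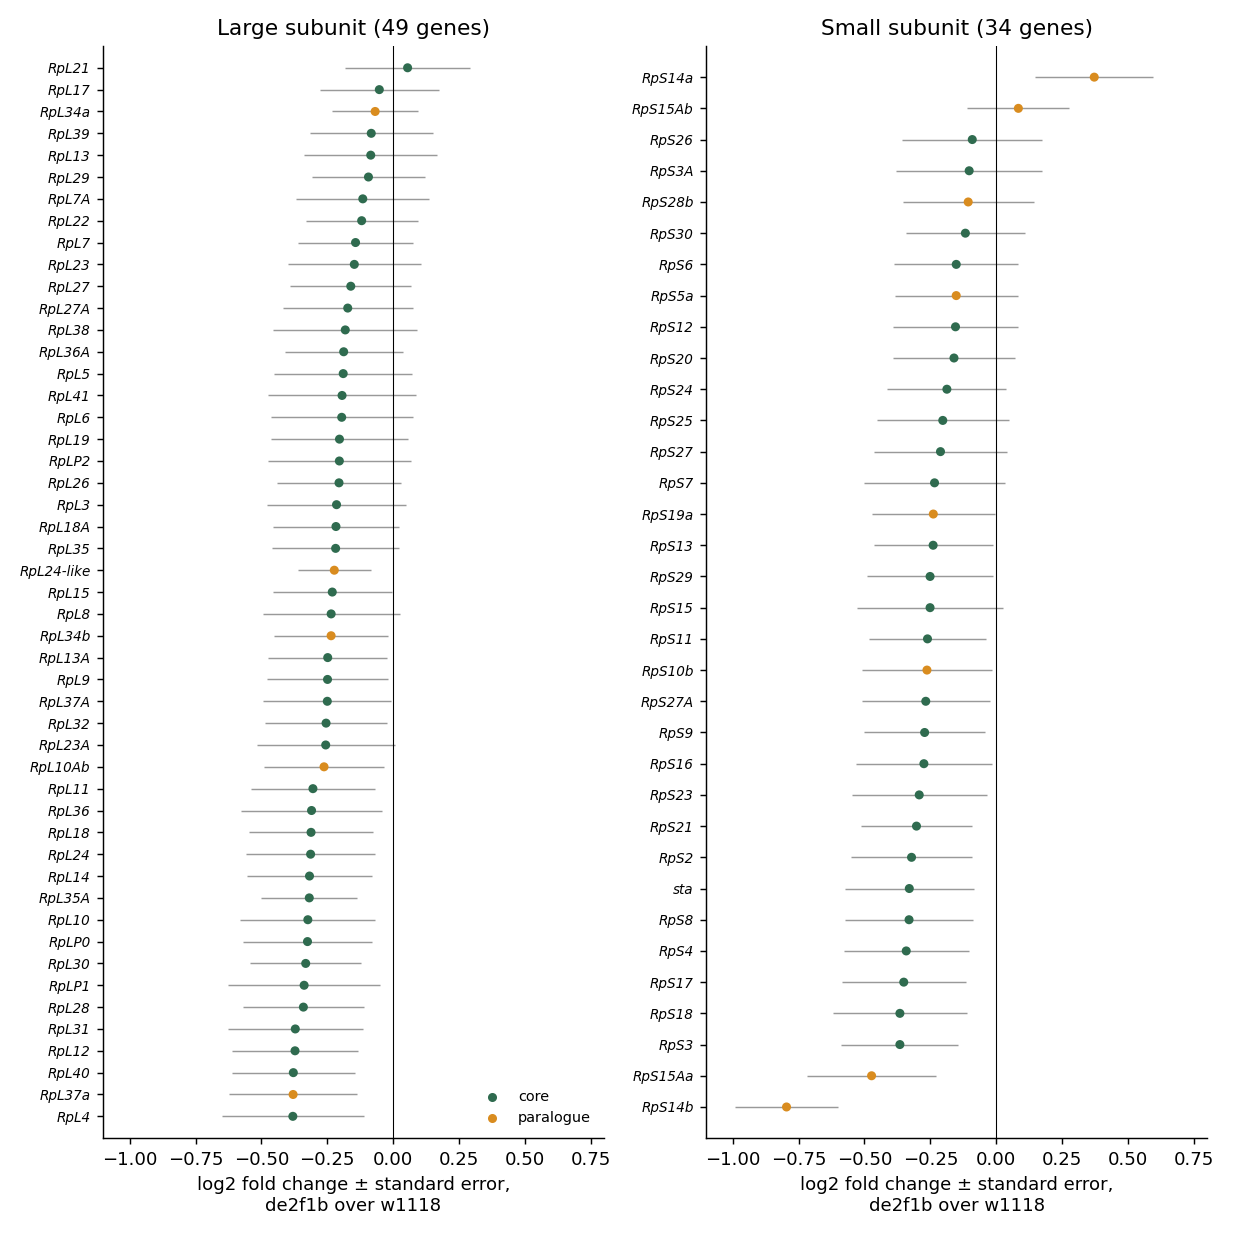
Log2 fold change of *de2f1b* over w1118 (x axis) with its limma standard error for each tested RP gene, large subunit on the left and small subunit on the right, core members in green and paralogues in orange. *RpS5b* and *RpS19b* lie beyond the axis and are left out. Nearly all points sit left of 0, around the core median of -0.24, and *RpS14b* and *RpS14a* are at the ends of the small subunit column.

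Within the core, the stalk proteins *RpLP0*, *RpLP1* and *RpLP2* had log2 fold changes of -0.32 (SE 0.25), -0.34 (SE 0.29) and -0.20 (SE 0.27). *RpL40* and *RpS27A*, both made as fusions with ubiquitin, had -0.38 (SE 0.23) and -0.27 (SE 0.24). *RpL12*, whose protein sits at the base of the stalk, had -0.37 (SE 0.24). *RpL11* and *RpL5*, which in mammals bind and inhibit the p53 ligase MDM2, had -0.30 (SE 0.24) and -0.19 (SE 0.26). *RpLP0*, *RpLP2*, *RpS27A* and *RpL11* are named for their roles, chosen with their values known.

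*RpS6*, the target of S6 kinase, had 100924, 110861, 80784 and 93820 normalized counts in *de2f1b* SGs, against 95381 and 119074 in w1118 SGs (log2 fold change -0.15, SE 0.23). *RpS12*, which in flies is needed for the competition of cells with unequal RP gene dose, had 68992, 84073, 60845 and 91297 normalized counts in *de2f1b* SGs, against 81550 and 86183 in w1118 SGs (-0.15, SE 0.24). The groups overlapped for both genes. *RpL15*, a protein of the large subunit body, had -0.23 (SE 0.23). *RpL21*, which encodes a large subunit protein, was the only core member with a positive value: 117297, 129895, 96010 and 131977 normalized counts in *de2f1b* SGs, against 113204 and 113688 in w1118 SGs (0.06, SE 0.24, adjusted p = 0.910 by limma). *RpL38*, whose mouse homologue affects the translation of Hox mRNAs, was the only core member lower in w1118 replicate 4 than in replicate 1. It had 57553, 58900, 53107 and 89906 normalized counts in *de2f1b* SGs, against 80455 and 64300 in w1118 SGs.

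Several *Drosophila* RPs are encoded by a pair of genes, and in most pairs 1 gene was used and the other was low or at 0. *RpS14a* and *RpS14b* are tandem genes on X that encode the same small subunit protein, which lies on the platform of that subunit near the mRNA exit. *RpS14a* (FBgn0004403) is at chrX:7933742-7934677 and *RpS14b* (FBgn0004404) at chrX:7934898-7935792 of BDGP6.54, both on the plus strand and separated by 220 bases. *RpS14b* had 12654, 15932, 11330 and 15030 normalized counts in *de2f1b* SGs, against 21207 and 26327 in w1118 SGs. Every *de2f1b* library was below both controls, and the log2 fold change was -0.80 (SE 0.20, adjusted p = 0.0835 by limma). *RpS14a* had 65882, 80396, 54784 and 68476 normalized counts in *de2f1b* SGs, against 46508 and 57173 in w1118 SGs. Replicates 1, 2 and 4 were above both controls and replicate 3 lay between them (log2 fold change 0.37, SE 0.22, adjusted p = 0.384 by limma).

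The share of the pair that fell on *RpS14b* was 16.1%, 16.5%, 17.1% and 18.0% in *de2f1b* replicates 1 to 4, against 31.3% and 31.5% in w1118 replicates 1 and 4. The means were 16.9% ± 0.817 (SD, n = 4) in *de2f1b* SGs and 31.4% ± 0.150 (SD, n = 2) in w1118 SGs, and Wilson 95% intervals of single libraries were within 0.319 percentage points. The log2 ratio of *RpS14b* to *RpS14a* differed by -1.17 between the genotypes, while it spanned 0.19 among the *de2f1b* libraries and 0.01 between the controls. Being a ratio within a library, it does not depend on the scaling, and the difference in share, *de2f1b* minus w1118, was -14.8 to -14.2 percentage points whichever library was left out. This contrast was singled out after the values were seen, and with 4 libraries against 2 an exact two-sided permutation test cannot give a p below 0.0667, so no test is given for it. The sum of the 2 genes changed by 0.10 on the log2 scale, which is 0.34 above the core median. The 2 genes are near-identical in sequence, and how reads that match both were assigned is not given in the sources used here, so the split between them is uncertain in each library. The labels do not give the genetic background of the *de2f1b* X chromosome, and a difference in sequence at this locus and a difference in transcription cannot be told apart from these counts.

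*RpS14a* and *RpS14b* were the members called when each library was scaled to the median of its core RP genes. That scaling was added after the values of both genes were seen, and it takes out the spread that the core members share. Its p-values therefore restate a contrast already picked from these data and are no separate support for it. On that scale *RpS14a* was called higher (log2 fold change 0.61, adjusted p = 0.0302 by limma) and *RpS14b* lower (-0.56, adjusted p = 0.0455), with a background of 3.58% of genes higher and 0.847% lower. Over all alternatives run, the adjusted p of *RpS14b* ranged from 0.0033 in DESeq2, which estimated its own size factors, to 0.630 in limma with a replicate block.

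*RpS15Aa* (chrX:13335637-13337705) and *RpS15Ab* (chr2R:10821676-10822399) encode another small subunit protein. *RpS15Aa* had 73836, 86408, 59046 and 82855 normalized counts in *de2f1b* SGs, against 92019 and 116920 in w1118 SGs, without overlap (log2 fold change -0.47, SE 0.25, adjusted p = 0.319 by limma). *RpS15Ab* had 5561, 6763, 4774 and 6098 normalized counts in *de2f1b* SGs, against 4735 and 6214 in w1118 SGs (0.08, SE 0.19). *RpS15Ab* made up 7.15% ± 0.277 of the pair in *de2f1b* SGs (SD, n = 4) and 4.97% ± 0.108 in w1118 SGs (SD, n = 2), with ranges of 6.86% to 7.48% in *de2f1b* SGs and 4.89% to 5.05% in w1118 SGs. The shares did not overlap, and like those of the *RpS14* pair they were singled out after they were seen. For *RpL34a* and *RpL34b*, a large subunit pair on 3R, the share of *RpL34a* was 12.7% to 15.1% in *de2f1b* SGs and 11.7% to 13.4% in w1118 SGs and overlapped. *RpL34b* had a log2 fold change of -0.24 (SE 0.22) and *RpL34a* of -0.07 (SE 0.16).

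**Figure D4:**
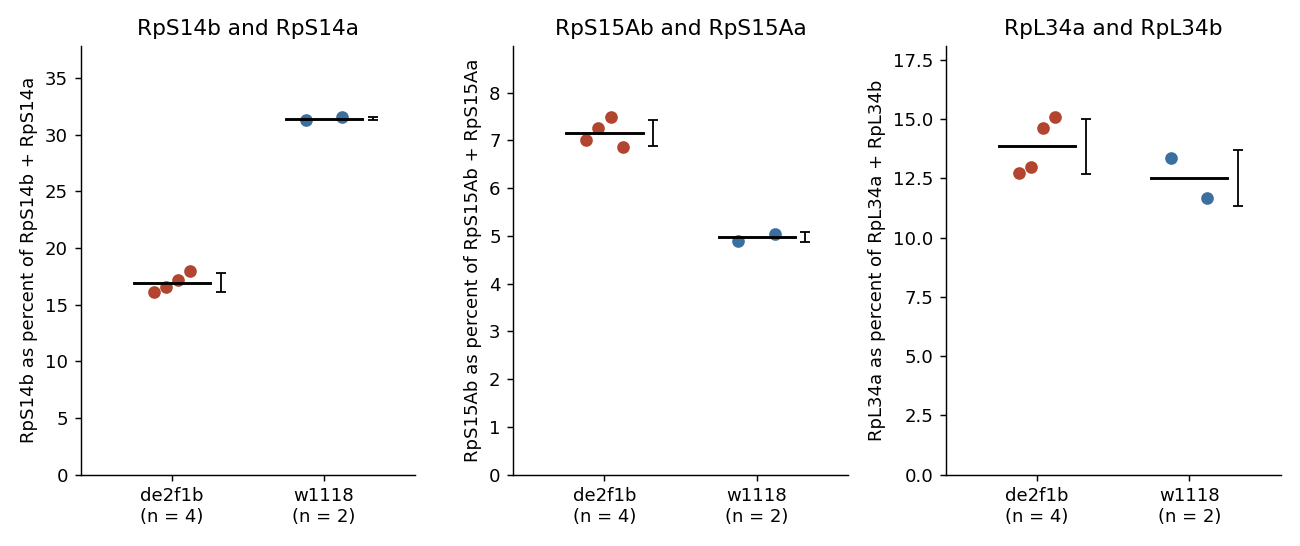
Percent of the normalized counts of a paralogue pair that fell on the less abundant gene, for *RpS14b*, *RpS15Ab* and *RpL34a*, in *de2f1b* SGs (red, n = 4) and w1118 SGs (blue, n = 2). Points are libraries, black bars means and the brackets beside them ± 1 SD. *RpS14b* averaged 16.9% in *de2f1b* SGs and 31.4% in w1118 SGs, *RpS15Ab* averaged 7.15% in *de2f1b* SGs and 4.97% in w1118 SGs, and the *RpL34a* points overlapped.

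The other abundant members with a paralogue followed the core. *RpL37a* had a log2 fold change of -0.38 (SE 0.24), *RpL10Ab* -0.26 (SE 0.23), *RpS10b* -0.26 (SE 0.25), *RpS19a* -0.24 (SE 0.23), *RpS5a* -0.15 (SE 0.23) and *RpS28b* -0.11 (SE 0.25). *RpL24-like*, the homologue of a yeast assembly factor of the large subunit rather than a component of finished ribosomes, had 3587, 4288, 3907 and 4305 normalized counts in *de2f1b* SGs, against 4821 and 4545 in w1118 SGs (-0.22, SE 0.14), without overlap.

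The remaining 9 paralogues, several of which are known for expression in testis or ovary, were low, and 6 of them reached 69.6 to 412 normalized counts in *de2f1b* replicate 3. *RpS5b* (FBgn0038277, chr3R:14900432-14901563) had 58.7, 32.9, 397.9 and 115 normalized counts in *de2f1b* SGs, against 8.34 and 1.83 in w1118 SGs. All 4 *de2f1b* libraries were above both controls. The controls held 10 reads and 2 reads, so the fitted log2 fold change of 4.26 (SE 1.06, adjusted p = 0.0844 by limma) depends on the pseudocount, and it was 2.91 with a pseudocount of 10 (adjusted p = 0.147). It was 3.58 without *de2f1b* replicate 3 (0.0876), 5.12 without w1118 replicate 1 (0.145), 3.40 without w1118 replicate 4 (0.519) and 3.13 without *de2f1b* replicates 3 and 4 (0.112), and with a replicate block the adjusted p was 0.384. *RpS19b* had 5.34, 4.11, 351.8 and 10.9 normalized counts in *de2f1b* SGs, against 2.50 and 2.75 in w1118 SGs. Both control values correspond to 3 reads, so no fold is given (adjusted p = 0.460 by limma), and *de2f1b* replicate 2 also held 3 reads and was above the controls only through its size factor. *RpS5b* and, with that limit, *RpS19b* were the 2 of 85 tested members with all 4 *de2f1b* libraries above both controls, where the background was 17.4% of all genes tested. Both genes reached the 10 normalized counts needed for testing only in *de2f1b* libraries. Their p-values and their place in this count are therefore partly set by the filter and are no support for a rise.

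The 7 members that were too low to be tested were *RpL22-like*, *RpL37b*, *RpL10Aa*, *RpS10a*, *RpS28a*, *RpS28-like* and *RpL7-like*. *RpL22-like*, which in flies is expressed in testis, had 4.00, 4.11, 412 and 7.04 normalized counts in *de2f1b* SGs, against 0.834 and 0 in w1118 SGs. *RpL37b* had 0, 4.11, 221.6 and 0 normalized counts in *de2f1b* SGs, and was at 0 in both controls. *RpS10a* had 4.00, 6.85, 112 and 2.35 normalized counts in *de2f1b* SGs, and was at 0 in both controls. *RpL10Aa* had 69.6 normalized counts in *de2f1b* replicate 3 and was at 0 in the other 5 libraries. A count of 0 allows up to 3 reads, which correspond to 2.35 to 4.11 normalized counts in *de2f1b* libraries and 2.50 to 2.75 in w1118 libraries. *RpS28-like* stayed between 1.56 and 9.95 normalized counts in all libraries. *RpS28a* had 0.904 normalized counts, which is 1 read, in *de2f1b* replicate 3, and *RpL7-like* had 0.917, also 1 read, in w1118 replicate 4. Of the sum over the 6 libraries, *de2f1b* replicate 3 held 96.3% for *RpL22-like*, 98.2% for *RpL37b*, 93.2% for *RpS19b*, 89.5% for *RpS10a* and 64.7% for *RpS5b*.

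The testis markers were high in the same library. Their summed normalized counts were 236, 308, 3705 and 232 in *de2f1b* replicates 1 to 4, against 229 and 137 in w1118 replicates 1 and 4. Of the 10 testis markers, 5, 7, 0 and 5 had no reads in *de2f1b* replicates 1 to 4, against 6 and 5 in the controls. Of 6 female germline markers, 3 exceeded 10 times the higher control in *de2f1b* replicate 3 and 1 did so in replicate 2. Summed, they stood at 52.0, 58.9, 454.9 and 61.0 normalized counts in *de2f1b* SGs, against 21.7 and 21.1 in w1118 SGs. The sum was above both controls in all 4 *de2f1b* libraries, and so were *orb*, *bam* and *vas* taken singly. *nos*, *osk* and *zpg* were not, and *zpg* was at 0 in *de2f1b* replicates 1, 2 and 4, against 0.834 and 3.67 in w1118 SGs. The part of testis and female germline transcripts in the level of the low paralogues was not tested.

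**Figure D5:**
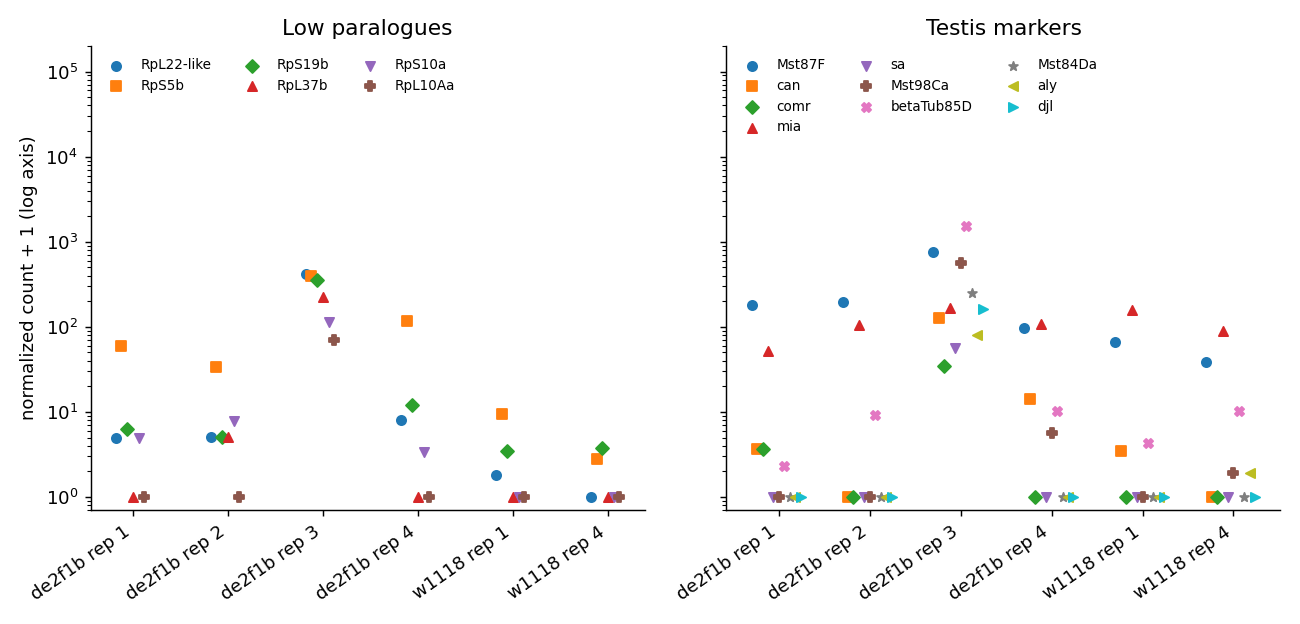
Normalized count + 1 (log y axis) of 6 low paralogues (left) and of the 10 testis markers (right) in each *de2f1b* library and, to their right, each w1118 library. All 6 paralogues are highest in *de2f1b* replicate 3, the library in which 9 of 10 testis markers exceed 10 times the higher control.

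Genes that work with the RPs were taken from lists written for this report. Over all genes tested, limma called 3.17% higher and 1.07% lower, 9.09% were lower at an unadjusted p under 0.05, and for 16% all 4 *de2f1b* libraries were below both controls. Calls in these lists are those of limma, and DESeq2 calls were not counted over them. DESeq2, which called 5.01% of all genes lower, gave an adjusted p of 0.00043 for the synthetase gene *alpha-PheRS* and 0.0065 for *eIF6*. It gave 0.11 for the assembly gene *Surf6*. These genes were among the 4 with the smallest limma p of their lists. Of 73 mitochondrial RP genes, which serve the separate ribosome of mitochondria, 72 were tested and 0 were called. Their median log2 fold change was -0.30, 18 were lower at an unadjusted p under 0.05 and 0 higher, and for 36 all 4 *de2f1b* libraries were below both controls. Of 19 ribosome assembly genes, 0 were called, 6 were lower at an unadjusted p under 0.05, and for 4 all 4 *de2f1b* libraries were below both controls, with a median of -0.60. The 2 controls differed as much, with a median of -0.65 for w1118 replicate 4 minus replicate 1, and only 2 of the 19 genes were higher in replicate 4. Relative to the mean of the controls, the *de2f1b* medians were -0.89, -0.86, -0.19 and -0.36 in replicates 1 to 4. *eIF6*, which keeps new large subunits from joining small ones, had 1439, 1596, 1892 and 1717 normalized counts in *de2f1b* SGs, against 2451 and 2722 in w1118 SGs (log2 fold change -0.64, SE 0.16, adjusted p = 0.0847 by limma). Of 20 cytosolic aminoacyl-tRNA synthetase genes, which charge tRNAs, 0 were called, 17 were lower at an unadjusted p under 0.05, and for 18 all 4 *de2f1b* libraries were below both controls, with a median of -0.59. All 20 were higher in w1118 replicate 4 than in replicate 1, by a median of 0.44. Relative to the mean of the controls, the medians were -0.54, -0.46, -0.73 and -0.64 in *de2f1b* replicates 1 to 4. They were -0.22 and 0.22 in w1118 replicates 1 and 4. The 11 genes of elongation factors and other proteins with a like 5′ tract had 0 calls, 2 lower at an unadjusted p under 0.05, 2 with all 4 *de2f1b* libraries below both controls and a median of -0.29. Of these 11, 10 were higher in w1118 replicate 4 than in replicate 1, and the median difference was 0.40. *Rack1*, which encodes a scaffold on the small subunit, had 111618, 124091, 87205 and 105330 normalized counts in *de2f1b* SGs, against 117341 and 143745 in w1118 SGs (-0.29, SE 0.25), close to the core RP members.

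Among 11 genes of RP transcription and growth control found in the table, 1 was called lower and 0 higher, where 1.07% and 3.17% of all genes were, 4 were lower at an unadjusted p under 0.05, and for 4 all 4 *de2f1b* libraries were below both controls. The called gene was *Dref*, whose product binds the DNA replication-related element in promoters of replication and growth genes. *Dref* had 2938, 3115, 2909 and 2814 normalized counts in *de2f1b* SGs, against 4899 and 6547 in w1118 SGs, without overlap (log2 fold change -0.94, SE 0.16, adjusted p = 0.0281 by limma). Over the 6 fits that left out 1 library, its log2 fold change ran from -1.15 to -0.74. The call was lost in each fit without 1 *de2f1b* library and in limma with a replicate block (adjusted p = 0.472). It was kept by edgeR (adjusted p = 0.037) and by DESeq2 (adjusted p = 2.1e-06). Of 22 alternatives run, 11 kept the call. *Max*, the partner of Myc, had a log2 fold change of -0.66 (SE 0.16, adjusted p = 0.0737), *Maf1*, a repressor of RNA polymerase III, -0.48 (SE 0.15, adjusted p = 0.137) and *Tif-IA*, a factor of RNA polymerase I, -0.43 (SE 0.16, adjusted p = 0.191). In flies, a shortage of an RP induces *Xrp1*, a transcription factor that acts with Irbp18. *Xrp1* had 22058, 19221, 15634 and 16735 normalized counts in *de2f1b* SGs, against 16033 and 19522 in w1118 SGs (0.04, SE 0.19, adjusted p = 0.911), and *Irbp18* had a log2 fold change of 0.23 (SE 0.18, adjusted p = 0.485 by limma). The groups overlapped for both genes.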

How the data were processed

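The deposited table holds, per the labels and the study's methods, paired-end reads of 100 bases aligned to BDGP6 with STAR 2.7.6a and counted per gene with featureCounts 1.6.0 by the authors, after FastQC 0.11.8. The authors divided the counts by DESeq2 size factors, and these deposited normalized counts are the signal used here. In every library 100% of values were whole multiples of 1 read (tolerance 0.001), which gave back the reads. Other columns hold the authors' DESeq2 comparison and were not used: log2 fold changes with their errors, a test score, and p-values that the authors adjusted by Benjamini-Hochberg.

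Members and lists were chosen with earlier results of these data known. Genes with at least 10 normalized counts in at least 2 of 6 libraries were tested with limma 3.58.1 (R 4.3.3, trend, two-sided) on log2(normalized count + 1), with a single term for genotype and p-values adjusted by Benjamini-Hochberg (threshold 0.05). edgeR 4.0.16 and DESeq2 1.42.0 were run on the recovered reads, and 130 DESeq2 adjusted p-values were NA and stayed so. Scripts were tested on simulated data. Other alternatives were pseudocounts, filters, scalings, a replicate block and leaving out libraries. Positions, exon lengths and snoRNA hosts came from the Ensembl 115 annotation of BDGP6.54, in which 92 of 92 members were matched by identifier. Exons of 12 members overlap another gene by over 10% of their length, among them *RpS9*, *RpL30* and *RpL24*, and whether counting used strand is not given in the sources used here.

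Members were named when called, when among the 5 largest rises, the 5 largest falls or the 5 highest levels, when a paralogue or near heterochromatin, and *RpL32*, *RpS12* and *RpS6*; of the other lists, up to 4 genes with the smallest p. Replicate numbers were not taken to pair libraries, since the labels do not say that they do. The 2 shared numbers gave correlations of -0.32 and -0.36. With 2 controls, the deviations of 1 mirror those of the other, so these correlations cannot decide on a pairing. Promoter and protein sequences were not used here.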

Additional observations from a re-analysis of the deposited data

Results flagged for a closer look

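Of 36 results examined in the 4 *de2f1b* libraries, 3 had a single library whose gap to the nearest other exceeded Dixon's 95% critical value for the share of the range. A rate of 1 in 20 would give 1.8. The 3 flagged values were compared as log2(normalized count + 1). *RpL10Aa* and *RpS28a* had no reads in the other *de2f1b* libraries, so their share was 1 at any level and that rate does not apply to them. In each it was *de2f1b* replicate 3, and in each the gene was a low paralogue. *RpL22-like* had 412 normalized counts there, *RpL10Aa* had 69.6, and *RpS28a* had 0.904, which is a single read. The testis markers, summed, stood at 3705 normalized counts in that library and at 232 to 308 in the other *de2f1b* libraries, against 137 to 229 in w1118 libraries, and their part in these values was not tested.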

How the results depend on the processing

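With 4 libraries against 2, the standard error of a core member was about as large as the core median, so a fall of that size could not be called. No member was called by limma with the deposited scaling under any pseudocount, filter or left-out library, and the counts of members called were 0 to 0 over the fits without 1 library. DESeq2 called 1 member higher and 1 lower, quantile normalization 1 higher (*RpS14a*), and scaling to the core RP median, added after the data were seen, 1 higher and 1 lower. The median over core members was 0.0309 under quantile normalization (0.0315 over all tested members) and ran from -0.38 to -0.11 over the fits without 1 library (-0.37 to -0.10 over all tested members). With a replicate block, the core median was -0.20, the median over all tested members -0.20, and 0 members were called; over all genes limma called 352 higher and 119 lower, edgeR 198 and 89, DESeq2 1088 and 556, limma after quantile normalization 200 and 118, and limma with the block 5 and 2. The correlations of same-numbered libraries were -0.32 and -0.36, which cannot exclude a pairing, so fits with and without the block are given.

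Of 605 log2 fold changes of 29 named members over the alternatives, 35, from 15 members, had the other sign, all between -0.11 and 0.20, and the cause was not tested. Under quantile normalization the values were 0.014 for *RpL10Ab*, 0.055 for *RpL15*, 0.055 for *RpL3*, 0.15 for *RpL34a*, 0.093 for *RpL38*, 0.11 for *RpL5*, 0.051 for *RpL8*, 0.017 for *RpS10b*, 0.084 for *RpS12*, 0.033 for *RpS19a*, 0.20 for *RpS28b*, 0.15 for *RpS3A*, 0.12 for *RpS5a* and 0.14 for *RpS6*. With equal totals outside the 50 most abundant genes they were 0.13 for *RpL34a*, 0.022 for *RpL38*, 0.014 for *RpL5*, 0.049 for *RpS12*, 0.097 for *RpS28b*, 0.10 for *RpS3A*, 0.052 for *RpS5a* and 0.052 for *RpS6*. With equal totals they were 0.085 for *RpL34a*, 0.047 for *RpS28b*, 0.050 for *RpS3A*, 0.0012 for *RpS5a* and 0.0013 for *RpS6*. Over the fits that left out 1 library, *RpL34a* ran from -0.14 to 0.00091, *RpS28b* from -0.22 to 0.017, *RpS3A* from -0.25 to 0.042, *RpS6* from -0.31 to 0.0088 and *RpS15Ab* from -0.11 (without w1118 replicate 1) to 0.28. Without both libraries with high ring gland markers *RpS3A* was at 0.075, and with the block *RpL38* was at 0.00015. The alternative with other promoter windows was not run.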
